A study of Mus musculus with 6 samples.

Results

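SNARE genes, which encode the membrane fusion machinery, were followed in ovulated mouse eggs arrested at metaphase of meiosis II (MII), as 10 of the 24062 gene rows of the deposited count table. They are Stx4a, Snap23, Vamp2 and Vamp3, whose proteins act in fusion at or near the plasma membrane, and Stx12, Stx7, Stx6, Stx16, Stx5a and Stx18, whose proteins act at endosomes, the trans-Golgi network, the Golgi and the endoplasmic reticulum. The genes were chosen by function, and with earlier results in view: Stx6 was selected on its lack of counts in the H3.3 libraries. Its values against H3.3 are therefore given as a description, without a test.

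The eggs came from super-ovulated 8-week-old HISRainbow;Figla-iCre females, so every group carried both the multicolour H3.3 transgene and the iCre recombinase driven by the oocyte gene Figla. K27R eggs expressed H3.3K27R-mCherry, in which lysine 27 is changed to arginine, R26K eggs expressed H3.3R26K-eCFP, in which arginine 26 is changed to lysine, and H3.3 eggs expressed H3.3-eGFP without a substitution. Each mutation has a fluorescent tag of its own, and the effects of tag and mutation cannot be told apart. There were 2 libraries per group, called biological replicates in the labels, and how many eggs or females went into a library is not given there.

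SNARE proteins drive membrane fusion. A vesicle R-SNARE, such as a VAMP, pairs with Q-SNAREs of the target membrane, a syntaxin together with a SNAP-25 family protein or with further syntaxin-like chains, and the bundle that forms pulls both membranes together. In the egg the best known use is the calcium-triggered release of cortical granules at fertilization, which alters the zona pellucida and blocks further sperm. In mice Snap23 has been shown to take part in that release.

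Total counts were 11557291 and 10803477 in the K27R libraries, 39603440 and 33786225 in the R26K libraries, and 12748821 and 11452906 in the H3.3 libraries. The 12 egg markers examined, among them Zp3, Gdf9 and Mos, were counted in every library, with a summed level of 28644 to 39130.5 CPM. CPM are counts scaled to a common library total, with library sizes adjusted by TMM, the trimmed mean of M values. Within that sum, Zar1 was higher in R26K (4316 and 4089 CPM) than in K27R (177 and 217 CPM) or H3.3 (194 and 269.5 CPM). Dppa3 was lower in R26K (4425 and 3280 CPM) than in K27R (8105 and 11140 CPM) or H3.3 (8801 and 12380 CPM). Of 18 cumulus and granulosa markers, 4 to 15 had a count, and their summed level was 1938 and 1417 CPM in K27R, 2034 and 1949 CPM in R26K and 966 and 1744 CPM in H3.3. Serpine2 made up most of that sum, at 1655 and 1394 CPM in K27R, 1914 and 1814 CPM in R26K, and 941 and 1241 CPM in H3.3. Has2 and Amh had at most 1 count in any library and Lhcgr none, while Tnfaip6 (186 CPM), Cyp19a1 (143.5 CPM) and Inha (97.5 CPM) were highest in H3.3 replicate 2. Of 9 blood, stromal and epithelial markers, 1 to 4 had a count (15.5 to 158 CPM in sum), most of it from Pecam1, and Ptprc had none. The number of genes with a count was 10715 and 7405 in K27R, 12135 and 12112 in R26K, and 7590 and 7392 in H3.3.

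The promoters of the member most unequal between groups, Stx6, and of the most abundant one, Stx12, show the kind of start site these genes have. Each sequence covers 250 bases before and 50 bases after the RefSeq gene start (build GRCm38.p6), and capitals mark GC boxes, GGGCGG or its complement CCGCCC. Stx6 lies on the plus strand at chr1:155158453-155158752 and Stx12 on the minus strand at chr4:132884409-132884708, printed 5′ to 3′.
Stx6: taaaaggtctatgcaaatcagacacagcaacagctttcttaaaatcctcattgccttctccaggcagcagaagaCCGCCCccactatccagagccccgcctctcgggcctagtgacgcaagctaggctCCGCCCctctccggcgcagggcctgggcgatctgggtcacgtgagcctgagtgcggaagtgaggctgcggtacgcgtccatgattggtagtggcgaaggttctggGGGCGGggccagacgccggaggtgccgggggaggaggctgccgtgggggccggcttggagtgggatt
Stx12: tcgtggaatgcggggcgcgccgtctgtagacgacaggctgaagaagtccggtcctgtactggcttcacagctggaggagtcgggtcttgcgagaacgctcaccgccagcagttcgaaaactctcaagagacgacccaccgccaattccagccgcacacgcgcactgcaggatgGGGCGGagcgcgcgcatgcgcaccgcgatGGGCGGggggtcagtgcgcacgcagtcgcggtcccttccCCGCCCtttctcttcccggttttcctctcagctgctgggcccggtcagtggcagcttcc

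Both windows hold 3 GC boxes, 1 CCAAT box (CCAAT or ATTGG) and no TATA box (TATAAA or TTTATA), and their GC content is 63.3% for Stx6 and 65.7% for Stx12. RefSeq windows were at hand for 8 of the 10 genes, as 11 start sites; those of Vamp2 and Vamp3 were not used here. Of the 11 windows, 8 held a GC box, 8 a CCAAT box and 0 a TATA box, searched on both strands; by gene these are 7, 6 and 0 of 8. Over 32851 mouse promoters of the same length these motifs stood in 35.7%, 37.4% and 13.6%. GC content of the 11 windows was 53.7% to 65.7%, against a median of 52.7% over all promoters, and they held 9 to 32 CG dinucleotides, against a median of 7. The most abundant member and one without counts in H3.3 eggs thus had CG-rich windows alike in these motifs. The matches are a description and say nothing of binding.

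Of the 10 genes, 7 had counts in each K27R library, 10 in each R26K library and 5 in each H3.3 library. The R26K libraries were the deepest. With all libraries thinned at random to the smallest total, 10803477, the numbers were 7 and 7 in K27R, 10 and 9 in R26K, and 5 and 5 in H3.3. Stx12, Snap23, Vamp3, Stx7 and Stx5a were counted in all 6 libraries. Stx6, Stx18, Stx4a, Stx16 and Vamp2 were the members without a count in H3.3, where 3 counts stand for 0.230 and 0.255 CPM. Of all 10667 tested genes, 2210 (20.7%) lacked counts in both H3.3 libraries, against 770 in both K27R and 53 in both R26K libraries. That share covers only genes passing the expression filter, which Stx16 and Vamp2 did not pass. Stx6 was chosen for being uncounted there. Over all 24062 gene rows, missing counts were commoner, as H3.3 replicate 1 detected 7590 genes and replicate 2 detected 7392. The members are therefore not compared with the 20.7%. Where a library pools several eggs, which is not stated, fewer eggs with a transcript and less of it per egg cannot be told apart.

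**Figure D1:**
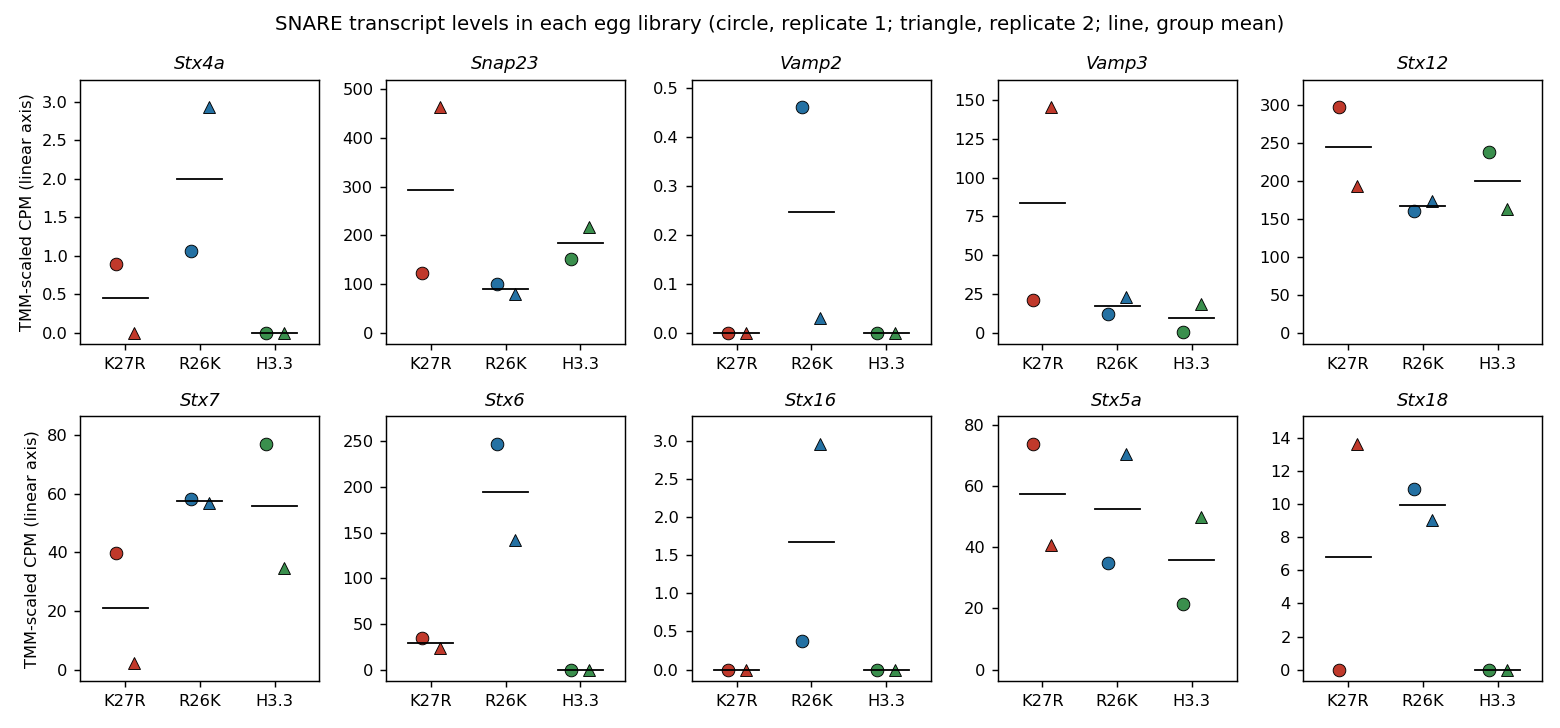
Level of each of the 10 SNARE genes in TMM-scaled CPM (vertical axes, linear, a scale of its own per gene) in the 2 libraries of each group (circle, replicate 1; triangle, replicate 2), with the group mean as a line. Stx12 lies between 159.9 and 297 CPM throughout, Stx6 is highest in both R26K libraries and at 0 in both H3.3 libraries, and Vamp3 and Snap23 are highest in K27R replicate 2.

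Among the plasma membrane and vesicle SNAREs, Snap23 was by far the best represented. It encodes the widely expressed relative of the neuronal SNAP-25 and supplies a pair of helices to the fusion bundle. GENCODE M21 (GRCm38) places it on the plus strand of chromosome 2 from 120567671 to 120601255. Its level was 122 and 464 CPM in K27R, 101 and 79.3 CPM in R26K, and 152 and 217 CPM in H3.3. Both R26K libraries lay below all others, and K27R replicate 2 stood far above them. The log2 fold change was 1.70 ± 0.65 (SE) in K27R against R26K, -1.04 ± 0.63 in R26K against H3.3 and 0.66 ± 0.63 in K27R against H3.3. None passed edgeR's quasi-likelihood test with Benjamini-Hochberg adjustment (adjusted p = 0.346, 0.375 and 0.790). Without K27R replicate 2 the value was 0.44 in K27R against R26K and -0.60 in K27R against H3.3. The neuronal relative Snap25, chosen after its values were seen, had no count in any library.

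Vamp3, cellubrevin, an R-SNARE of recycling endosomes and secretory vesicles, was at 21.4 and 145.5 CPM in K27R, 12.25 and 22.9 CPM in R26K, and 0.3065 and 18.8 CPM in H3.3. The H3.3 replicates stood far apart, with 4 counts in H3.3 replicate 1 and 221 in H3.3 replicate 2. The log2 fold change was 3.13 ± 1.899 in K27R against H3.3 (edgeR adjusted p = 0.550) and 2.25 ± 1.83 in K27R against R26K (0.813). It was 0.88 ± 1.76 in R26K against H3.3 (0.849), and without H3.3 replicate 1 it became -0.11. Single libraries moved these values: without K27R replicate 2 they were 1.17 in K27R against H3.3 and 0.29 in K27R against R26K. Without H3.3 replicate 2 they were 8.06 in K27R against H3.3 and 5.81 in R26K against H3.3, and without R26K replicate 2 the last was 0.36. Stretches of at least 100 bases with at least 95% identity to Vamp3 occur in transcripts of 4 other genes, and for Snap23 in 25. The handling of reads that map to several places is not stated, so the counts of both genes are uncertain.

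Vamp2, the synaptic vesicle R-SNARE of neurons, was barely detected. It had 17 and 1 counts in R26K and none in K27R or H3.3, and did not pass the expression filter. Stx4a, the plasma membrane syntaxin that pairs with Snap23 in many cells, had 11 and 0 counts in K27R, 39 and 97 in R26K, and none in H3.3. These counts are 0.896 and 0 CPM in the K27R libraries and 1.06 and 2.93 CPM in the R26K libraries, at least 8.23-fold higher in R26K than the H3.3 mean floor of 3 counts per library, and at least 4.36-fold without R26K replicate 2. The edgeR adjusted p for Stx4a was 0.229 in R26K against H3.3, 0.522 in K27R against H3.3 and 0.937 in K27R against R26K. Stx4a passed the expression filter through R26K and, with no count in H3.3, could not be lower than there. Nothing further is read from these p-values.

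Among the endosomal syntaxins, Stx12 (also called syntaxin 13, of recycling endosomes) was the steadiest. Its gene spans 132853501 to 132884509 on the minus strand of chromosome 4. It was at 297 and 192.5 CPM in K27R, 159.9 and 173 CPM in R26K, and 237 and 163 CPM in H3.3. Both K27R libraries lay above both R26K libraries, and R26K and H3.3 overlapped. The log2 fold change was 0.56 ± 0.37 in K27R against R26K, 0.29 ± 0.37 in K27R against H3.3 and -0.27 ± 0.37 in R26K against H3.3, with edgeR adjusted p of 0.694, 0.888 and 0.757. These are the smallest standard errors among the tested members, so Stx12 is the member measured most precisely.

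Stx7, the syntaxin of late endosomes, was at 39.9 and 2.09 CPM in K27R, 58.1 and 57.0 CPM in R26K, and 77.15 and 34.6 CPM in H3.3. Only K27R replicate 2 was low, with 22 counts where K27R replicate 1 had 490. The log2 fold change was -1.45 ± 1.34 in K27R against R26K, -1.41 ± 1.33 in K27R against H3.3 and 0.04 ± 1.31 in R26K against H3.3 (edgeR adjusted p = 0.874, 0.789 and 0.993). Without K27R replicate 2 the first of these was -0.53 and the second -0.49, and without K27R replicate 1 they were -4.78 and -4.74. In K27R replicate 2, Stx7 was thus at its lowest while Vamp3 and Snap23 were at their highest.

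Stx6, a Qc-SNARE that carries traffic between endosomes and the trans-Golgi network, varied most between the groups. It had 427 and 244 counts in K27R, 9113 and 4708 in R26K and 0 and 0 in H3.3, which is 34.8 and 23.2 CPM in the K27R libraries and 247.5 and 142 CPM in the R26K libraries. No library of one group overlapped those of another. With TMM scaling and against the mean H3.3 floor of 3 counts per library, Stx6 was at least 119-fold higher in K27R. In R26K it was at least 804-fold higher. At the lowest of 4 scalings these bounds were 114-fold and 700-fold. Single libraries moved them further, to 95.5-fold without K27R replicate 1 and 587-fold without R26K replicate 1. The floor reflects counting error alone, because amplified reads do not stand for separate molecules. Of the 2210 tested genes without a count in H3.3, 45 reached at least 10 CPM in each of the other 4 libraries, and Stx6 had the highest mean R26K level of these 45. Depth and genes with a count were also highest in R26K, and the summed cumulus and granulosa markers were 1938 and 1417 CPM in K27R, 2034 and 1949 CPM in R26K, and 966 and 1744 CPM in H3.3. Most of these sums is Serpine2, and the other markers differed in direction. Ptgs2 was at 0 and 0 CPM in K27R, 5.02 and 0 CPM in R26K, and 23.75 and 31.4 CPM in H3.3. Star was at 2.69 and 0 CPM in K27R, 8.15 and 4.205 CPM in R26K, and 0 and 0.085 CPM in H3.3. Cyp11a1 was at 38.3 and 0.095 CPM in K27R, 9.23 and 15.7 CPM in R26K, and had no count in H3.3. The part of depth, genes with a count and these markers in the Stx6 values was not tested.

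The stated ground for choosing Stx6 was its lack of counts in H3.3, not its difference between K27R and R26K. Earlier results of these data were known, so the p-values of this difference may not be free of that choice. There the log2 fold change was -2.75 ± 0.67 in K27R against R26K, with an unadjusted p of 0.00879 and an edgeR adjusted p of 0.250, so it did not pass. DESeq2 gave -2.73 ± 0.87 with an adjusted p of 0.0313, which did. GENCODE M21 places Stx6 on chromosome 1 from 155158715 to 155208256, with no exon shared with another gene and no near-identical stretch in another transcript.

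Stx16, a Qa-SNARE of the trans-Golgi network that pairs with Stx6 in other cells, did not follow it in abundance. It had 14 and 98 counts in R26K, or 0.380 and 2.96 CPM, none in K27R and none in H3.3, and did not pass the filter. The R26K mean was at least 6.89-fold above the H3.3 floor, and at least 1.56-fold without R26K replicate 2.

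Of the early secretory syntaxins, Stx5a, the Qa-SNARE of transport from the endoplasmic reticulum to the Golgi, was at 73.95 and 40.8 CPM in K27R, 34.8 and 70.4 CPM in R26K, and 21.5 and 50.05 CPM in H3.3. All groups overlapped. The log2 fold change was 0.13 ± 0.84 in K27R against R26K, 0.68 ± 0.85 in K27R against H3.3 and 0.56 ± 0.84 in R26K against H3.3 (edgeR adjusted p = 1, 0.879 and 0.785). Stx18, which serves transport back to the endoplasmic reticulum, was at 0 and 13.7 CPM in K27R, 10.9 and 9.04 CPM in R26K, and had no count in H3.3. R26K was at least 41.1-fold above the H3.3 floor, and at least 37.3-fold without R26K replicate 1. In K27R the whole value came from replicate 2, with 144 counts. The edgeR adjusted p was 0.251 in R26K against H3.3, 0.522 in K27R against H3.3 and 1 in K27R against R26K, where the log2 fold change was -0.55 ± 2.99 and was 0.45 without K27R replicate 1. DESeq2 called Stx18 higher in R26K than in H3.3, where it called 12.9% of all genes it tested in either direction. With no count in H3.3, Stx18 could only be higher there, so nothing further is read from the call. GENCODE lists Nsg1 and Gm42858 over exons of Stx18 and Mir6992 over those of Stx5a; Nsg1 had no count in any library.

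**Figure D2:**
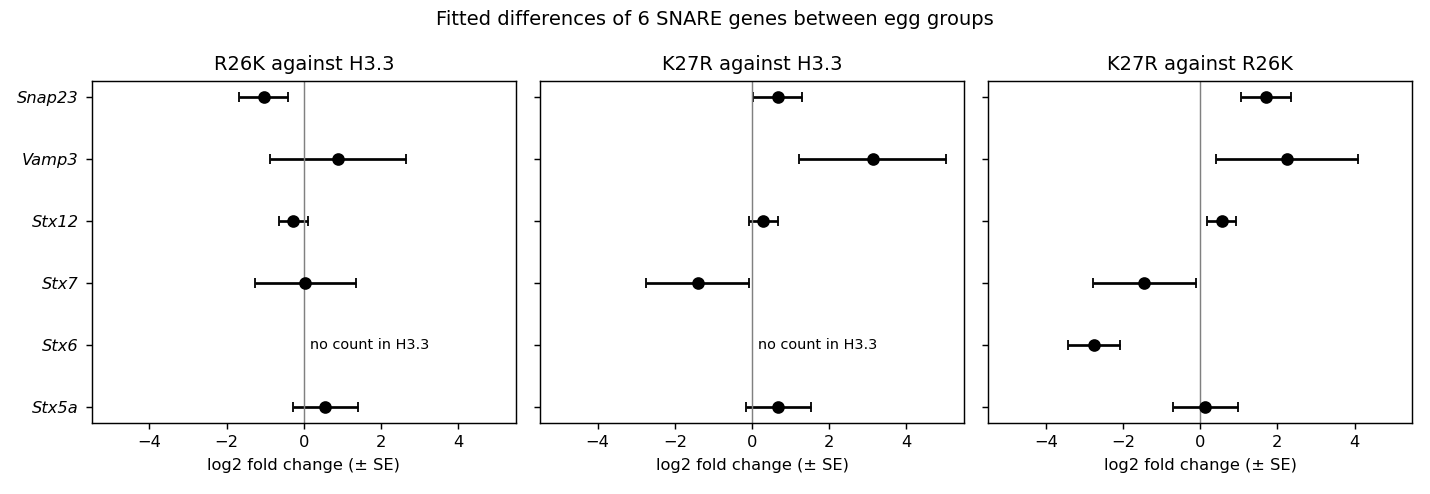
Log2 fold change of 6 SNARE genes with its standard error (horizontal axes) in R26K against H3.3, K27R against H3.3 and K27R against R26K, fitted by edgeR with 2 libraries per group. Stx12 has the narrowest intervals and Vamp3 the widest, and Stx6, which has no count in H3.3, has a value in K27R against R26K alone, at -2.75.

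In all, 8 of the 10 genes passed the filter and were fitted with the other genes. Stx4a and Stx18, with counts in both R26K libraries and none in H3.3, passed through R26K and could only be higher there than in H3.3. Nothing is read from their tests against H3.3. Leaving out Stx6, 0 of 7 tested members were called in R26K against H3.3 by edgeR, with 1 (Stx4a) at an unadjusted p under 0.05, where 0.619% of all genes were called; DESeq2 called 1 (Stx18). In K27R against H3.3, 0 of 7 were called by edgeR and 0 by DESeq2, with 0 at an unadjusted p under 0.05, where 0% of all genes were called; DESeq2 put 1 of 9 under an unadjusted p of 0.05. In K27R against R26K, 0 of 8 were called by edgeR, with 2 (Stx6 and Snap23) at an unadjusted p under 0.05, where 0.375% of all genes were called, and DESeq2 called 1 (Stx6). Over all tested genes, edgeR gave an unadjusted p under 0.05 to 21.7% in R26K against H3.3, 7.12% in K27R against H3.3 and 13.2% in K27R against R26K. DESeq2 called 12.9%, 6.42% and 4.66% of the 14242 genes it tested in these 3 comparisons, far more than edgeR. Both contrasts with H3.3 use the same H3.3 libraries.

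Of the 8 tested members, Stx6 included, 3 had both R26K libraries above both H3.3 libraries and 1 had both below, where 44.9% and 15.2% of all tested genes did. In K27R against H3.3 the numbers were 2 above and 0 below, where 15.9% and 9.62% of all tested genes were. In K27R against R26K they were 2 above and 3 below, where 17.5% and 36.3% of all tested genes were. The 3 above H3.3 in R26K were Stx6, Stx4a and Stx18, which had no count in H3.3 and so could not lie below it. Stx6 stands among those above H3.3 in both R26K and K27R through its choice. Nothing particular to SNAREs is read from these counts.

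Levels were then compared between genes per kilobase of exon. Averaged over the 6 libraries, Stx12 was at 63.9 ± 16.9 CPM per kb (SD over the 6 libraries) and Snap23 at 44.1 ± 33.2 CPM per kb. Vamp3 followed at 12.8 ± 18.6, Stx7 at 10.01 ± 5.76, Stx5a at 8.37 ± 3.53 and Stx6 at 7.02 ± 9.39 CPM per kb. Stx18 was at 1.22 ± 1.38, Stx4a at 0.345 ± 0.484, Stx16 at 0.141 ± 0.300 and Vamp2 at 0.0215 ± 0.0489 CPM per kb. Snap23 exceeded Vamp3 in 6 of 6 libraries and Stx12 exceeded Snap23 in 5 of 6, the exception being K27R replicate 2. From Vamp3 to Stx6 neighbours in this order changed places between libraries: Vamp3 exceeded Stx7 in 1 of 6, Stx7 exceeded Stx5a in 3 of 6 and Stx5a exceeded Stx6 in 4 of 6. Dividing by the longest coding transcript instead, an alternative chosen after seeing the data, put Stx12 (69.5) and Snap23 (69.3) level and Stx5a next (21.6 CPM per kb), and left the order of the 4 lowest as it was.

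**Figure D3:**
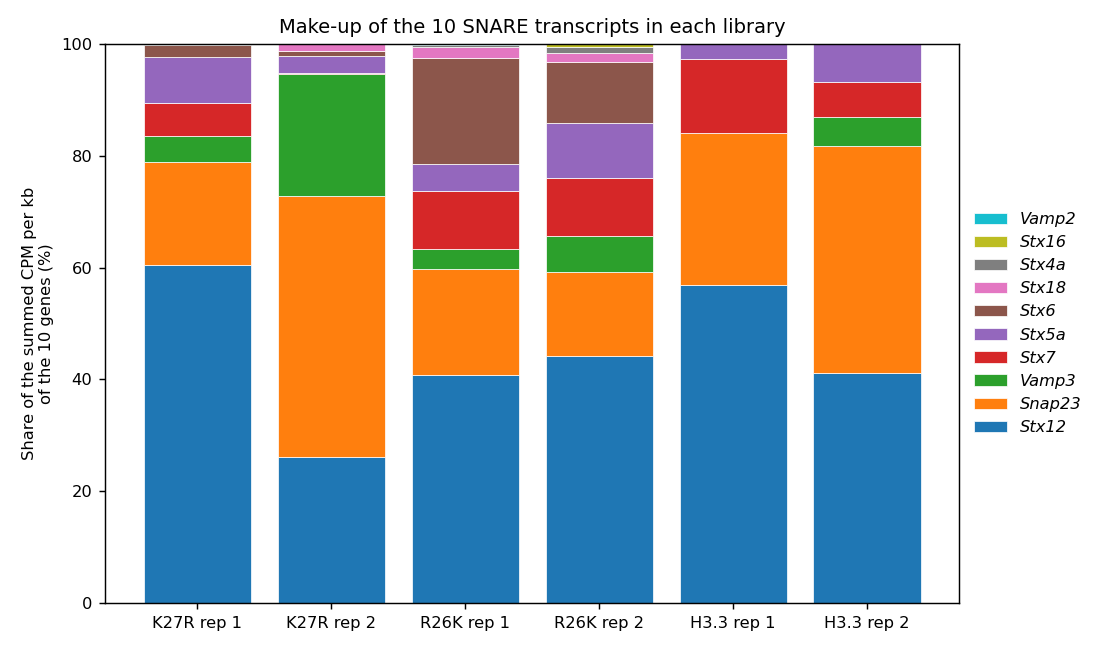
Share of each gene in the summed CPM per kilobase of exon of the 10 SNARE genes (vertical axis, percent, from 0 to 100) in each library (horizontal axis). Stx12 holds 26.1% to 60.4%, Snap23 15.0% to 46.7%, and Stx6 2.12% and 0.941% in K27R, 18.9% and 10.9% in R26K and 0 in H3.3.

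Summed over the 10 genes, the level was 154 and 231 CPM per kb in K27R, 123.2 and 122.8 CPM per kb in R26K, and 131.0 and 125 CPM per kb in H3.3. Stx12 held 60.4% and 26.1% of it in K27R, 40.7% and 44.2% in R26K, and 56.9% and 41.1% in H3.3. Vamp3 held 4.80% and 21.8% in K27R, 3.44% and 6.44% in R26K, and 0.0810% and 5.21% in H3.3.

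The genes most like Stx6 over the 6 libraries, by Pearson's r of log2(CPM + 1) ranked over 6144 genes averaging 10 CPM or more, were Rtn3 (0.998), Mrpl14 (0.997), Bcl7b (0.995), Fam69b (0.994) and Trim44 (0.992). An r of at least 0.95 was reached by 95 genes, and the libraries differ in depth and in genes detected. Rtn3, for example, was at 8.39 and 8.36 CPM in K27R, 37.9 and 21.3 CPM in R26K, and had no count in H3.3.

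The other genes of vesicle fusion formed 9 lists with 100 genes in the table, of which 37 were counted in all 6 libraries and 23 in none. With a count were 63 and 50 of them in K27R, 69 and 71 in R26K, and 49 and 50 in H3.3. The 4 complexins and Cadps, which tune regulated secretion, and the R-SNARE Vamp7 were among those in none; these were chosen after their values were seen. The filter passed 66. By edgeR 0 of 66 were called in each comparison, with 14 at an unadjusted p under 0.05 in R26K against H3.3, 3 in K27R against H3.3 and 10 in K27R against R26K. Over all tested genes the shares at that p were the 21.7%, 7.12% and 13.2% given above. DESeq2, which tested 77 of them, called 8 higher and 5 lower in R26K against H3.3, 2 higher and 0 lower in K27R against H3.3, and 1 higher and 1 lower in K27R against R26K, beside its shares over all genes given above. The median log2 ratio of the 66, with a group of no counts set at its floor, was 0.23 in R26K against H3.3, where that of all tested genes was 0.66. It was -0.09 in K27R against R26K, where that of all tested genes was -0.31. Fitted medians were the same for the 66, and 0.66 and -0.32 for all tested genes. In K27R against H3.3 the median falls on genes without counts in both groups, where it restates the floors, and it is not compared.

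By list, none of the tested members was called by edgeR: 0 of 5 other syntaxins, 0 of 4 other SNAP and VAMP genes, 0 of 12 SNAREs of the endoplasmic reticulum and Golgi, 0 of 3 disassembly factors and 0 of 10 Sec1/Munc18 proteins and syntaxin binders. Likewise it was 0 of 8 calcium sensors and clamps, 0 of 13 priming and docking factors, 0 of 7 exocyst subunits and 0 of 4 cortical granule genes. The most abundant gene of each list is described next.

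Scfd1 (Sly1), the Sec1/Munc18 protein that works with Stx5a, was at 159 and 330.2 CPM in K27R, 60.2 and 59.5 CPM in R26K, and 287 and 254 CPM in H3.3. Both R26K libraries lay below all others. The log2 fold change was -2.18 ± 0.44 in R26K against H3.3 and 2.03 ± 0.43 in K27R against R26K, and neither passed by edgeR (adjusted p = 0.0978 and 0.158). Unc13c, of the Munc13 family of priming factors, likewise had both R26K libraries below all others: 916 and 1015 CPM in K27R, 519 and 397 CPM in R26K, and 1057 and 1005 CPM in H3.3. Its log2 fold change was -1.17 ± 0.24 in R26K against H3.3 and 1.08 ± 0.24 in K27R against R26K (edgeR adjusted p = 0.102 and 0.170).

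Syt1, a calcium sensor of regulated secretion, was at 62.2 and 42.5 CPM in K27R, 39.4 and 42.7 CPM in R26K, and 113 and 141 CPM in H3.3. Both mutant groups lay below H3.3, with log2 fold changes of -1.63 ± 0.56 in R26K and -1.28 ± 0.55 in K27R (edgeR adjusted p = 0.213 and 0.522). Syt1 was the exception in its list. Of the 8 tested calcium sensors and clamps, 7 had a log2 fold change above 0 in R26K against H3.3. Among these 7, Syt5, Syt14 and Doc2a had no count in H3.3 and could not be lower. DESeq2 called both Scfd1 and Syt1 in R26K against H3.3, and Scfd1 in K27R against R26K. From the list of Syt1 it also called Doc2a higher in R26K and Syt14 higher in K27R, each against H3.3.

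Nsf, the ATPase that takes spent SNARE bundles apart, was at 397 and 225 CPM in K27R, 338 and 357 CPM in R26K, and 456 and 244 CPM in H3.3. Exoc1, an exocyst subunit, was at 383 and 205 CPM in K27R, 287 and 246 CPM in R26K, and 280.3 and 56.4 CPM in H3.3. For both genes the groups overlapped in each comparison. Bet1, a Golgi SNARE, was at 116 and 196 CPM in K27R, 76.6 and 33.6 CPM in R26K, and 112 and 78.5 CPM in H3.3. Stx17 was at 50.6 and 27.35 CPM in K27R, 49.6 and 17.2 CPM in R26K, and 41.8 and 3.99 CPM in H3.3. Snap29 was at 40.1 and 62.2 CPM in K27R, 21.6 and 26.7 CPM in R26K, and 107.9 and 10.3 CPM in H3.3. For both, the H3.3 libraries lay furthest apart, and the standard error in R26K against H3.3 was 1.35 for Stx17 and 1.16 for Snap29.

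Plat, a secreted protease, was the most abundant of the cargo list, at 7508 and 3822 CPM in K27R, 7919 and 6545 CPM in R26K, and 7449 and 4814 CPM in H3.3. Astl, the cortical granule protease that cleaves the zona protein Zp2, was chosen after its values were seen. It was at 1676 and 1358 CPM in K27R, 866 and 1153 CPM in R26K, and 1364 and 1819 CPM in H3.3. Both R26K libraries lay below all others for Astl. The remaining genes of this list, Calr and Padi6, also added after their values were seen, went the other way. Both R26K libraries lay above all others, at 71.5 and 85.5 CPM for Calr and 452 and 494.5 CPM for Padi6. In H3.3 they were at 15.5 and 3.14 CPM (Calr) and 266 and 293 CPM (Padi6). No gene of this list passed edgeR's test in any comparison.

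**Figure D4:**
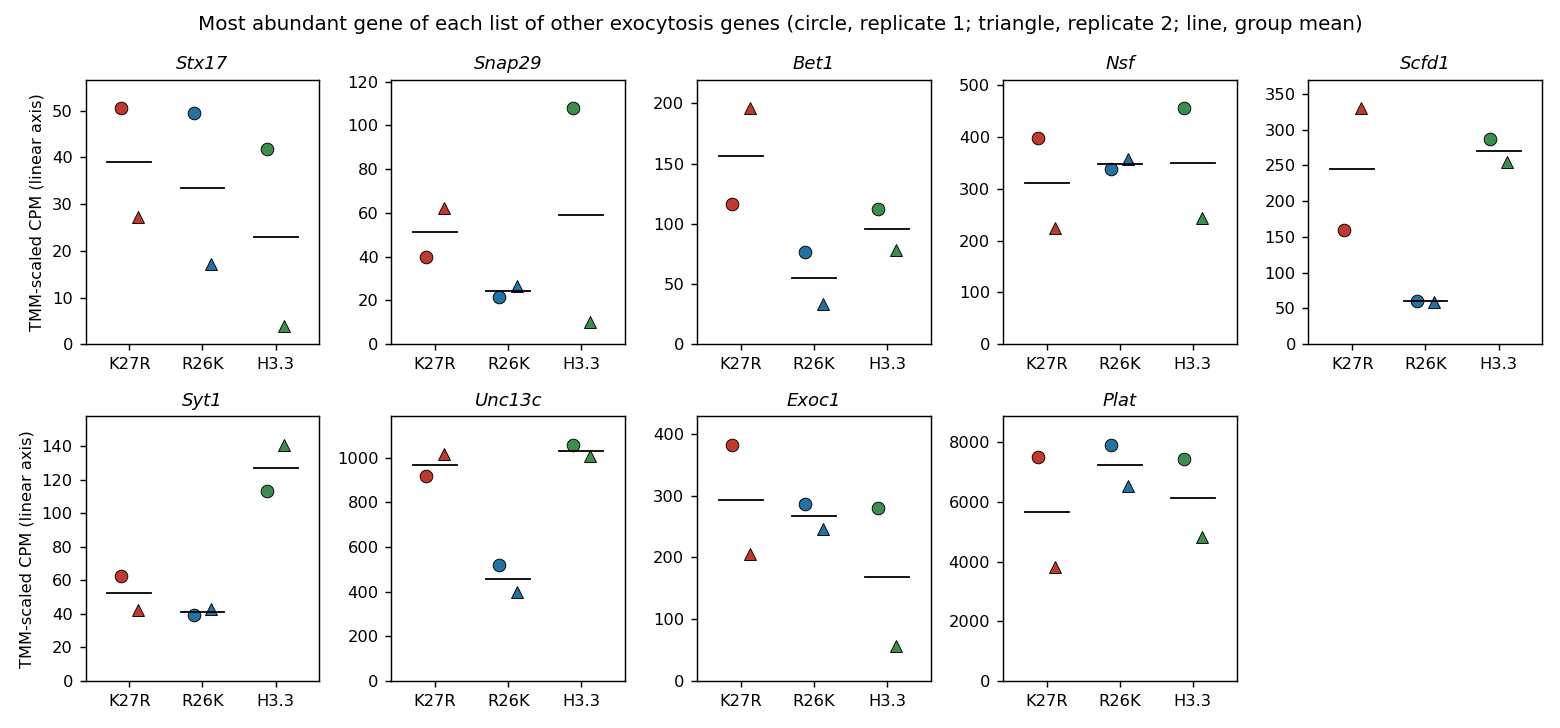
Level in TMM-scaled CPM (vertical axes, linear, a scale of its own per gene) of the most abundant gene of each of the 9 lists of other vesicle fusion genes, by group (circle, replicate 1; triangle, replicate 2; line, group mean). Both R26K libraries lie below all others for Scfd1 (60.2 and 59.5 CPM) and Unc13c (519 and 397 CPM), and the groups overlap for Nsf and Stx17.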

How the data were processed

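RNA of 6 MII egg samples, 2 per group (listed as total RNA), was made into cDNA with the SMARTer Ultra Low kit and into libraries with Nextera and read as single 50-base reads, per the labels' protocols. The tools listed in the submitters' processing notes are featureCounts, SAMtools 1.3, TopHat2 2.1.0 and cutadapt 1.9.1, with the build mm10; annotation, strand and multi-mapping settings are not stated. The authors deposited raw read counts, whole numbers for each gene, in 6 columns that each matched 1 sample title.

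From these, CPM after TMM scaling were computed, and all genes passing filterByExpr were tested in a single model with a mean for each of 3 groups (edgeR 4.0.16, quasi-likelihood, R 4.3.3; 3 residual degrees of freedom, two-sided, Benjamini-Hochberg over 10667 genes, threshold 0.05). SE is the log2 fold change over the square root of F. The steps were tested on simulated counts. Whether libraries came from different females is not stated, so p-values reflect only their spread, which may be technical. Floors stand for 3 counts per library and cover counting error only. Lengths and overlaps came from GENCODE M21 (GRCm38), where all 10 genes matched. Members and lists were chosen with earlier results of these data known; named genes are the 10 members, each list's called genes or else its most abundant tested gene, and the 5 most like Stx6. Alternatives were DESeq2 1.42.0, RLE and upper-quartile scaling, CPM without TMM, no filter, a mean of at least 10 CPM, only the groups compared, a replicate block, robust spread, each library left out, thinning, and, added after seeing the data, the longest coding transcript as the length and floor folds with each library left out.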

Additional observations from a re-analysis of the deposited data

How the results depend on the processing

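DESeq2 called 1 of 9 members, Stx6 left out, in R26K against H3.3 and 1 of 10 in K27R against R26K. Of the other vesicle fusion genes it called 13 of 77 in R26K against H3.3. In K27R against H3.3 and in K27R against R26K it called 2 of 77 each. Over all genes DESeq2 called 12.9%, 6.42% and 4.66% in these 3 comparisons. By edgeR 0 members and 0 of the other genes were called in each, and the cause was not tested. The replicate numbers are not stated to mark shared females or days, and the differences between replicates correlated at -0.00864 to 0.0210 between groups over 10667 genes. With the replicate block 2 of the other genes (Scfd1 and Rab3d) were called in R26K against H3.3, and 0 members. The share of all genes called is not given for this fit or for those with a library left out. Nothing particular to these genes is therefore read from such calls. Leaving out a library gave 0 to 1 called among the other genes in R26K against H3.3 (Unc13b without H3.3 replicate 1, Rab3d without R26K replicate 2).

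Signs of small log2 differences turned. In R26K against H3.3, Stx7 was -0.0381 with DESeq2, -0.0424 with RLE and -0.15 with upper-quartile scaling. Leaving out each library gave -0.42 to 0.73 for Stx7 there, -0.0426 to 1.29 for Stx5a, -0.51 to 0.0191 for Stx12 and -0.11 to 5.81 for Vamp3. In K27R against H3.3 the ranges were -0.0570 to 0.59 for Stx12 and -0.60 to 1.33 for Snap23. In K27R against R26K they were -0.37 to 0.72 for Stx5a and -0.67 to 0.45 for Stx18. None of these had passed. Stx6 over the H3.3 floor was 700-fold to 804-fold in R26K and 114-fold to 122-fold in K27R over the 4 scalings. It was 587-fold without R26K replicate 1 and 95.5-fold without K27R replicate 1. The common dispersion was 1.63, with 2 libraries per group.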
